A study of Mus musculus with 18 samples.

Results

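The endoplasmic reticulum (ER) stress, folding and translocation genes described here are 39 genes listed by name for their known roles in the unfolded protein response, in protein folding inside the ER and in moving proteins across the ER membrane. All 39 were found among the 11243 genes of the count table. They divide by role into 4 sensors and transcription factors, 9 Hsp70 and Hsp90 chaperones with their partners, 2 lectin chaperones, 5 disulfide enzymes, 9 genes of ER-associated degradation and 10 genes of the translocation machinery. They were measured in RAW264.7 cells, a mouse macrophage line that arose from a virus-induced tumour, and all libraries described here come from this 1 line. Control cells received the vehicle DMSO, LPS cells received 500 ng/mL lipopolysaccharide (LPS, a bacterial cell wall component that activates macrophages) from Salmonella enterica serotype minnesota Re 595 for 6 h, and LPS + torin1 cells received 100 nM torin1, an inhibitor of the growth kinase mTOR, 15 min ahead of the same LPS. The time in vehicle is not given per sample, and cells given torin1 without LPS were not analysed here, so all torin1 values are for LPS-treated cells. Each of 3 independent experiments gave 1 lysate per treatment, and each lysate gave 1 library of total mRNA and 1 library of mRNA sedimenting with heavy polysomes, which carry many ribosomes. This makes 18 libraries from 9 lysates with n = 3 per group.

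Most secreted and membrane proteins enter the ER through the Sec61 channel, where signal peptidase removes the signal peptide, the TRAP complex assists entry, and chaperones and disulfide enzymes fold the chain. When unfolded proteins build up, the membrane sensors IRE1 (gene Ern1), PERK (gene Eif2ak3) and ATF6 start the unfolded protein response. IRE1 splices Xbp1 mRNA into a form that encodes an active transcription factor, ATF6 is cut to release another, and PERK phosphorylates the initiation factor eIF2α, which slows translation in general and favours ATF4. Many chaperone promoters carry the ER stress response element (ERSE), known as a binding site for ATF6 and XBP1 together with the factor NF-Y. Activated macrophages secrete large amounts of cytokines and other proteins through this route. The values here are read counts per gene, so they do not measure Xbp1 splicing, cleavage of ATF6 or phosphorylation of PERK.

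The libraries held between 27800983 and 47725557 counts, and the 39 genes took between 1.04% and 1.85% of them. All 9 of the listed macrophage markers were in the table, with summed levels of 11534 to 22171 normalized CPM (counts scaled to a common library total) per library. Of 7 markers of other cells, Itgax was the only marker in the table, at 2.16 to 6.01 normalized CPM in control total mRNA, 9.62 to 32.2 in LPS and 23.2 to 57.1 in LPS + torin1. Macrophages can also express Itgax, and its part in the results was not tested. Normalization by the trimmed mean of M values (TMM) sets the average gene to no change. Without it, with plain library totals, the median gene fell by 0.38 on the log2 scale in LPS against control in both RNA types, and by 0.30 in LPS + torin1 against control, while LPS + torin1 against LPS moved by 0.07 at most. Every change below is therefore relative to the average gene, and the direction under library totals is given where it differs. As these are bulk samples, less RNA per cell and fewer cells with the RNA cannot be told apart.

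Promoter windows from RefSeq, on build GRCm38.p6, were given for 33 of the 39 genes and reach from 250 bases before to 50 bases after the transcription start. The ERSE searched was CCAAT, 9 bases of any kind, then CCACG, on either strand. It was found in 8 of the 33 windows, or 24.2%, and in 14 of the 9054 windowed genes of the table, or 0.155%, these 8 included. ERSE-II, searched as ATTGG, 1 base of any kind, then CCACG on either strand, was found in 2 of the 33, or 6.06%, and in 0.0884% of the windowed genes of the table. The sites of 8 genes are shown because these genes are among the chaperone and degradation genes that the results below turn on. Each run is on the strand of its gene from 5′ to 3′, and the capitals mark the fixed letters of the element.
Hspa5, chr2:34772020-34772049, plus strand, ERSE from base -65 to -47: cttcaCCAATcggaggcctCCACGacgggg
Hsp90b1, chr10:86705632-86705661, minus strand, ERSE from base -212 to -194: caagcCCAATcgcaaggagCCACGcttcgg
Canx, chr11:50325794-50325823, minus strand, ERSE from base -145 to -127: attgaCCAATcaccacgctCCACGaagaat
Calr, chr8:84847069-84847098, minus strand, ERSE read on the other strand, from base -162 to -144: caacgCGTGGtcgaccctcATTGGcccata
Pdia6, chr12:17266486-17266515, plus strand, ERSE from base -98 to -80: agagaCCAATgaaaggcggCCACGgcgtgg
Syvn1, chr19:6046527-6046556, plus strand, ERSE from base -44 to -26: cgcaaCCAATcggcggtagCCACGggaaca
Herpud1, chr8:94386368-94386397, plus strand, ERSE-II from base -52 to -42: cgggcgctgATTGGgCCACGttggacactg
Dnajb11, chr16:22857843-22857872, plus strand, ERSE-II from base 8 to 18: ccggcggcgATTGGcCCACGcctggctgct

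The other members with an ERSE were Dnajc3 and Creld2, and Hsp90b1 held a further ERSE closer to its start. The core ACGTG, a short sequence known from XBP1 sites that can overlap other motifs, was in 14 of the 33 windows, or 42.4%, beside 29.9% of the windowed genes of the table. The ATF4 element TGATGNAA was in 1 of the 33, or 3.03%, beside 2.86%. No window was given for Atf6, Hyou1, Manf, Derl1, Sec61a1 and Ssr2. A match is a description of these letters and was not tested as a binding site.

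The question of the first comparison was which of these mRNAs LPS changed within 6 h. In total mRNA, 30 of the 39 genes were higher in LPS than in control and 3 were lower at a false discovery rate (FDR) of 0.25 in edgeR's quasi-likelihood test. Of all 11243 genes, 66.5% were called, 32.2% higher and 34.3% lower. The median change of the 39 was 0.38 on the log2 scale beside -0.02 for all genes, and by experiment it was 0.45, 0.49 and 0.26. All 3 LPS libraries were above all 3 control libraries for 26 of the 39 genes, which held for 25.6% of all genes, and below them for 2, which held for 28.3%. Under library totals 14 of the 39 were higher and 8 lower, with a median of 0.01, while 15.3% of all genes were higher and 62.0% lower.

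The largest rise belonged to Herpud1, which encodes an ER membrane protein of the degradation machinery (chr8:94386438-94395377, plus strand of GRCm38). Herpud1 was at 70.0, 45.3 and 44.9 normalized CPM in the control total libraries of experiments 1 to 3 and at 343, 231 and 217 in the LPS libraries. The lowest LPS library was thus above the highest control library, and the 4.94-fold rise had a log2 change of 2.30 ± 0.22 (SE, n = 3, adjusted p = 2.29e-05 by edgeR). Dnajb9 encodes ERdj4, a J-domain partner of the ER Hsp70 chaperone (chr12:44205559-44210326, minus strand). It was at 14.7, 10.7 and 9.996 normalized CPM in control and at 66.9, 39.7 and 27.3 in LPS. The log2 change was 1.92 ± 0.30 with no overlap of the groups (adjusted p = 0.000455 by edgeR), and the LPS libraries spread more than the control libraries. Hspa5 encodes BiP, the ER Hsp70 itself (chr2:34771970-34777547, plus strand). Its levels were 1399, 986 and 1202 normalized CPM in control and 3596, 3038 and 2362 in LPS. The groups did not overlap, and the log2 change was 1.33 ± 0.17 (adjusted p = 0.000134 by edgeR). Syvn1 encodes the ubiquitin ligase HRD1 of ER-associated degradation. It stood at 29.3, 21.7 and 32.8 normalized CPM in control and at 53.7, 71.8 and 69.1 in LPS, a log2 change of 1.22 ± 0.16. These 4 genes stayed higher under library totals, at 1.93, 1.54, 0.95 and 0.85.

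Among the chaperones and their partners, 8 of 9 were higher and none lower, with 5 higher and 1 lower under library totals. After Dnajb9 and Hspa5, the log2 changes were 0.86 for Manf, a secreted ER stress-inducible factor, 0.74 for Creld2, another secreted ER stress protein, and 0.62 for Hyou1, a nucleotide exchange factor for BiP. Hsp90b1, the ER Hsp90 known as GRP94, was at 1399, 1066 and 1405 normalized CPM in control and at 2054, 1661 and 1683 in LPS. Each LPS library was above each control library, by 0.48 ± 0.14 on the log2 scale (adjusted p = 0.0187 by edgeR). Sdf2l1, a partner of the co-chaperone ERdj3, was the exception at 0.04 ± 0.12, with control libraries at 78.3, 65.3 and 66.8 normalized CPM and LPS libraries at 72.3, 83.1 and 61.3. Its 95% interval, from -0.23 to 0.32, allows a modest change either way, and it was called lower at -0.33 under library totals. Dnajc3, an inhibitor of eIF2α kinases, was called at 0.23 but lost the call without experiment 1 or without experiment 2, and was -0.14 under library totals.

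The 2 lectin chaperones, which hold glycoproteins while they fold, were higher by smaller amounts. Calr encodes calreticulin, and its normalized CPM was 1324, 1134 and 1243 in control and 1925, 1711 and 1589 in LPS. The groups did not overlap (log2 change 0.50 ± 0.11, adjusted p = 0.00386 by edgeR). Canx encodes calnexin and went from 1353, 1246 and 1321 normalized CPM in control to 1785, 1544 and 1503 in LPS, a log2 change of 0.30 ± 0.10. It was -0.07 under library totals, so its direction holds only relative to the average gene. All 5 disulfide enzymes were called higher: Ero1l, the oxidase that recharges protein disulfide isomerases and is named Ero1a in newer annotations, by 0.64, Pdia6 by 0.61, P4hb by 0.60, Pdia4 by 0.41 and Pdia3 by 0.22. Pdia3 was not called without experiment 1 or without experiment 2 and was -0.14 under library totals.

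The translocation genes moved together, with 9 of 10 higher, none lower and changes from 0.14 to 0.66. Under library totals 4 of them were higher and 1 lower. Sec61a1, the pore-forming subunit of the Sec61 channel, was at 432, 376 and 427 normalized CPM in control and at 608, 716 and 633 in LPS. No LPS library overlapped the control libraries, and the log2 change was 0.66 ± 0.10 (adjusted p = 0.000474 by edgeR). Sec61b, a small subunit, was at 55.9, 43.5 and 51.6 normalized CPM in control and at 56.2, 80.2 and 50.3 in LPS. Its call at 0.31 ± 0.16 rested on the LPS library of experiment 2, and without that experiment the change was -0.01. The 3 signal peptidase genes Spcs1, Spcs2 and Spcs3 were higher by 0.30, 0.43 and 0.38, and the TRAP genes Ssr2, Ssr3 and Ssr4 by 0.57, 0.63 and 0.38. Ssr1 was at 0.14 with an adjusted p of 0.281 by edgeR, and at 0.173 when the replicate number was a block.

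The degradation genes were divided. Besides Herpud1 and Syvn1, the ligase partner Sel1l was higher by 0.29 and the membrane proteins Derl1 and Derl2 by 0.33 and 0.26, and each of these 3 was below 0 under library totals. The EDEM genes, whose products help to pick out misfolded glycoproteins, did not follow. Edem2 was at 0.11 ± 0.11 and Edem3 at 0.00 ± 0.11, while Edem1 was called lower at -0.21 ± 0.14. Edem1 was at 702, 805 and 625 normalized CPM in control and at 589, 708 and 550 in LPS, with overlapping groups and an adjusted p of 0.244 by edgeR, and the call was lost without experiment 1 or without experiment 3. Os9, a lectin of the same step, was at 0.07 ± 0.11.

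Of the 3 sensors, none was higher. Atf6 (chr1:170704674-170867771, minus strand) was at 408, 379 and 397 normalized CPM in control and at 321, 230 and 233 in LPS. It fell in every experiment, by -0.60 ± 0.13 (adjusted p = 0.00388 by edgeR). Eif2ak3, which encodes PERK, was at 37.5, 32.7 and 37.9 normalized CPM in control and at 28.8, 27.1 and 24.6 in LPS, a log2 change of -0.43 ± 0.10 (adjusted p = 0.00624 by edgeR). Neither gene's groups overlapped, and both were also lower under library totals. Ern1, which encodes IRE1, was at 30.7, 29.2 and 32.4 normalized CPM in control and at 38.9, 26.7 and 37.6 in LPS. At 0.16 ± 0.15 it did not pass the test. Xbp1, the mRNA that IRE1 splices, was at 273, 244 and 235 normalized CPM in control and at 419, 327 and 271 in LPS, with an overlap of the groups. Its change of 0.44 ± 0.16 passed the test (adjusted p = 0.0487 by edgeR) and was 0.06 under library totals.

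**Figure D1:**
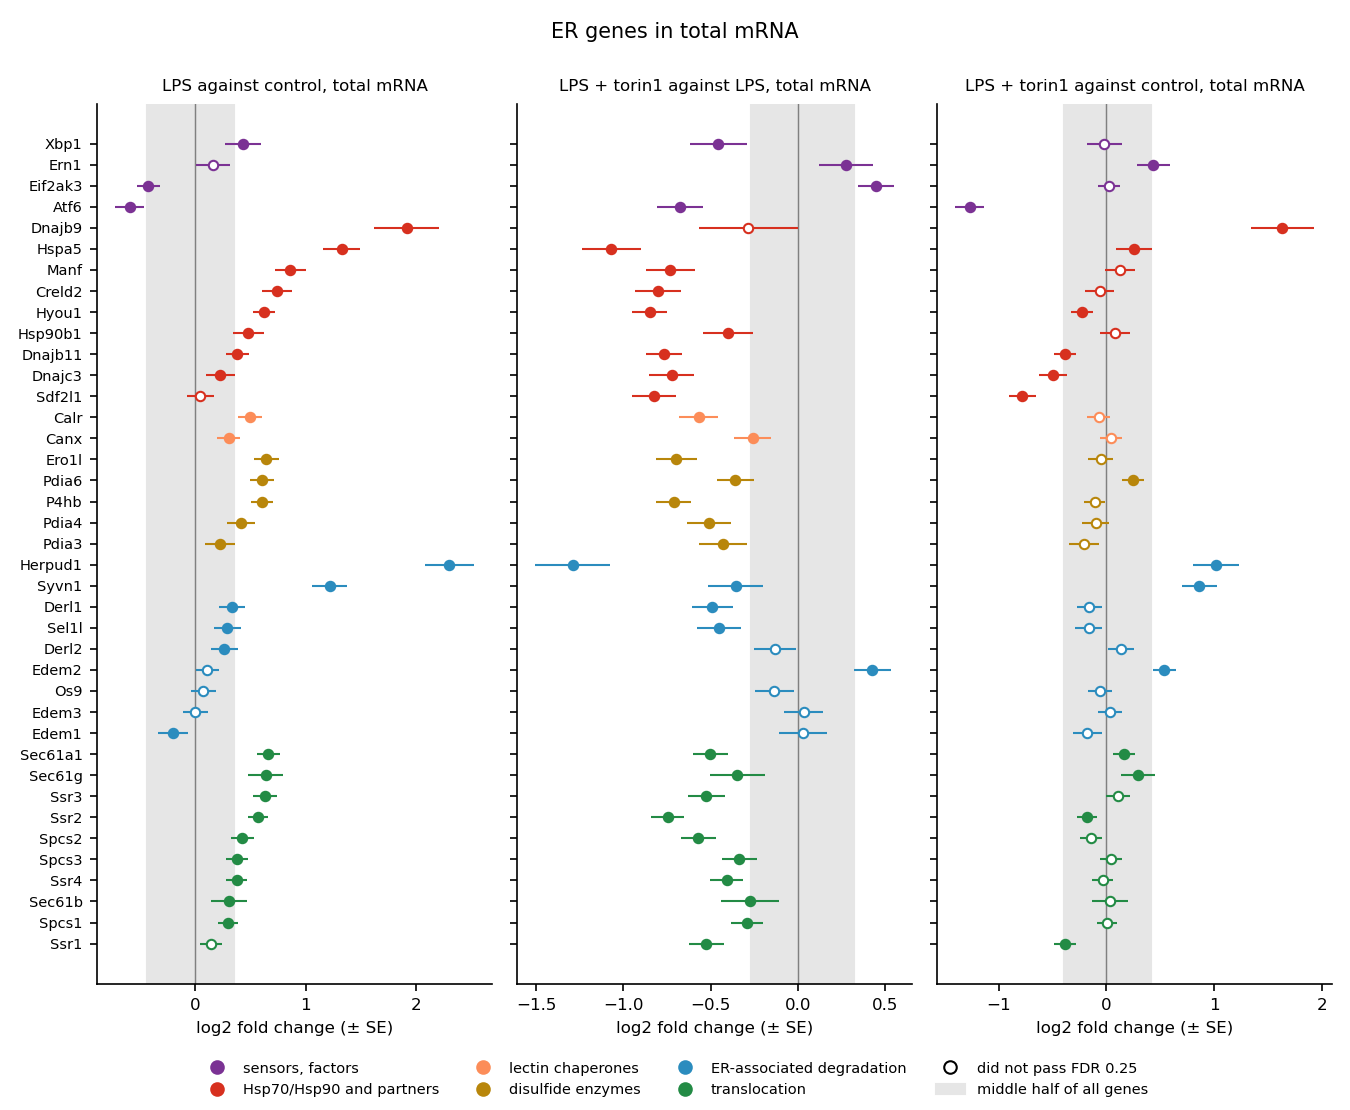
Log2 fold change in total mRNA (horizontal axes, ± SE, n = 3 per group) of the 39 ER genes (vertical axis, coloured by role) for LPS against control, LPS + torin1 against LPS and LPS + torin1 against control, relative to the average gene. Open points did not pass FDR 0.25 and the grey band holds the range from the lower to the upper quartile of all 11243 genes. Most points lie to the right of 0 with LPS (30 higher and 3 lower, but 14 and 8 under library totals), to its left with torin1 (31 lower, 3 higher), and on both sides of it in the comparison with control (9 higher, 7 lower, but 4 and 28 under library totals), where Dnajb9 lies farthest to the right and Atf6 farthest to the left.

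In heavy polysome mRNA, 26 of the 39 genes were higher in LPS than in control and 2 were lower, where 55.1% of all genes were called, 26.4% higher and 28.7% lower. The median change of the 39 was 0.49 beside -0.03 for all genes. Under library totals 9 were higher and 6 lower, beside 13.7% and 54.3% of all genes. Without experiment 1, 18 genes were called in place of 28. All 26 genes called higher in polysomes were also called higher in total mRNA, the 2 lower genes were Atf6 and Eif2ak3 again, and 5 genes were called in total mRNA alone. Herpud1 rose from 119.2, 56.1 and 67.0 normalized CPM in control to 536, 331 and 290 in LPS, by 2.25 ± 0.31 on the log2 scale (adjusted p = 0.000371 by edgeR). Dnajb9 rose by 1.89 ± 0.26, from 9.17, 7.95 and 6.15 normalized CPM to 38.0, 28.2 and 19.9. For both genes all LPS libraries were above all control libraries. Syvn1 followed at 1.19 ± 0.23, with 63.3, 32.5 and 46.4 normalized CPM in control and 112.3, 120 and 91.2 in LPS, and Hspa5 at 1.16 ± 0.21, with 1075, 621 and 929 in control and 2119, 1934 and 1820 in LPS. The same order of genes thus led in both RNA types, except that Hspa5 and Syvn1 changed places with values within their errors. Atf6 fell from 279, 243 and 300 normalized CPM to 199, 152 and 187, and Eif2ak3 from 36.8, 32.0 and 35.3 to 27.1, 23.98 and 25.8. The log2 changes were -0.61 ± 0.16 and -0.44 ± 0.13, and neither gene's groups overlapped.

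The second question was which of these mRNAs differed between LPS + torin1 and LPS. Without cells given torin1 alone, an effect of torin1 on the LPS response and an effect apart from LPS cannot be told apart. In total mRNA, 31 of the 39 genes were lower in LPS + torin1 than in LPS and 3 were higher, where 53.7% of all genes were called, 26.4% lower and 27.3% higher. The median change of the 39 was -0.46 beside 0.00 for all genes, and by experiment it was -0.64, -0.51 and -0.33. All 3 LPS + torin1 libraries were below all 3 LPS libraries for 27 of the 39 genes, which held for 19.8% of all genes, and above them for 2, which held for 22.2%. Library totals gave nearly the same split, with 30 lower and 3 higher, beside 20.8% and 31.9% of all genes. The LPS libraries serve in both comparisons, so a chance high value in LPS raises the first difference and lowers the second. For that reason the counts are given side by side without a test: of the 30 genes higher with LPS, 28 were lower with torin1 and the 2 others, Dnajb9 and Derl2, were not called. The share lower with torin1 among all genes higher with LPS is not given here. The 28 are therefore not set against a background and do not show a trait particular to ER genes.

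Herpud1 had the largest fall, from 343, 231 and 217 normalized CPM in LPS to 120, 94.6 and 109 in LPS + torin1. The groups did not overlap, and the log2 change was -1.29 ± 0.22 (adjusted p = 0.00206 by edgeR). Hspa5 was at 1455, 1413 and 1414 normalized CPM in LPS + torin1, below each of its LPS libraries (3596, 3038 and 2362). The change of -1.07 ± 0.17 had an adjusted p of 0.00158 by edgeR, and the 3 torin1 libraries were much closer together than the LPS libraries. Hyou1 went from 843, 830 and 881 normalized CPM to 461, 453 and 503, a log2 change of -0.85 ± 0.10 (adjusted p = 0.000375 by edgeR). Dnajb9 did not follow the other chaperones: at 42.3, 37.1 and 30.4 normalized CPM in LPS + torin1 it overlapped its LPS libraries, and the change was -0.28 ± 0.28, with a 95% interval from -0.91 to 0.34. The other 8 genes of that group were lower, by -0.40 to -1.07, Sdf2l1 included. Sdf2l1 fell from 72.3, 83.1 and 61.3 normalized CPM to 40.3, 42.8 and 39.2 (-0.82 ± 0.12), although LPS had not raised it.

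The lectin chaperones, the disulfide enzymes and the translocation genes were all called lower, 2 of 2, 5 of 5 and 10 of 10. Calr fell to 1201, 1152 and 1168 normalized CPM (-0.57 ± 0.11) and Canx to 1343, 1290 and 1402 (-0.26 ± 0.10). Hsp90b1, from the chaperone group, fell to 1349, 1244 and 1494 (-0.40 ± 0.14). Canx and Hsp90b1 kept non-overlapping groups but lost the call without experiment 1. Sec61a1 fell to 454, 471 and 458 normalized CPM (-0.50 ± 0.10, adjusted p = 0.00575 by edgeR). Among the TRAP genes Ssr2 fell furthest, from 491, 447 and 467 normalized CPM to 268, 298 and 271 (-0.75 ± 0.09, adjusted p = 0.000489 by edgeR). Sec61b, at 53.4, 50.9 and 50.1 normalized CPM, was called at -0.27 ± 0.16 with overlapping groups and lost the call whichever experiment was left out.

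The degradation genes were again divided, with 4 lower, 1 higher and 4 not called. Next to Herpud1, Syvn1 was lower by -0.36 ± 0.16, with overlapping groups and no call without experiment 2 or without experiment 3. Edem2 went the other way, from 49.0, 56.2 and 45.3 normalized CPM in LPS to 63.7, 74.4 and 64.4 in LPS + torin1 (0.43 ± 0.11, adjusted p = 0.0140 by edgeR), with no overlap. Edem1 and Edem3 were both at 0.03, and Os9 was at -0.14 (adjusted p = 0.397 by edgeR, and 0.221 with the replicate block). The sensors split as well. Eif2ak3 rose to 35.7, 35.9 and 38.2 normalized CPM (0.45 ± 0.10, adjusted p = 0.00930 by edgeR), and Ern1 to 42.3, 35.4 and 47.1 (0.28 ± 0.15, adjusted p = 0.206 by edgeR), a call lost without experiment 1 or without experiment 3. Atf6 fell further, to 166, 161 and 164 normalized CPM (-0.67 ± 0.13, adjusted p = 0.00448 by edgeR). Xbp1 fell to 258, 273 and 210 (-0.46 ± 0.16), with 1 LPS library inside the torin1 range.

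**Figure D2:**
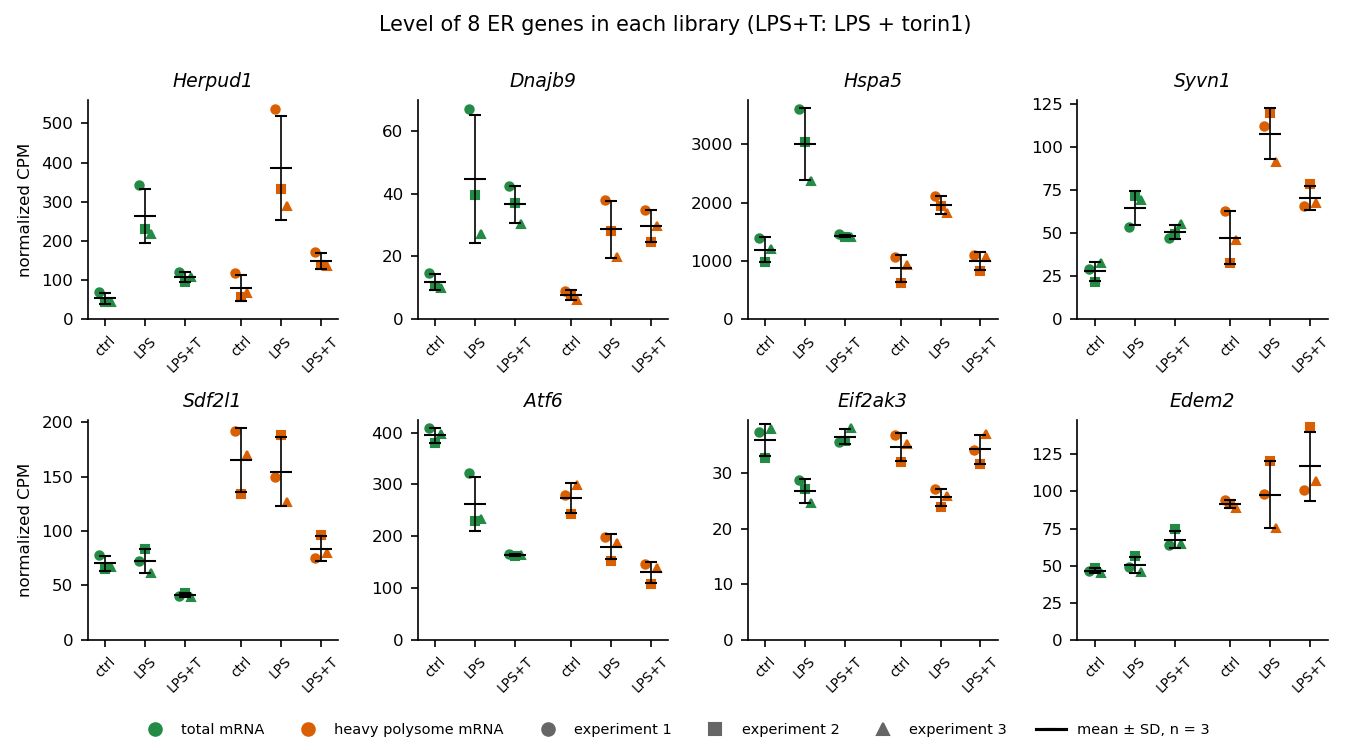
Normalized CPM (vertical axes, starting at 0) of 8 ER genes in the 18 libraries, by treatment and RNA type (horizontal axes), with 1 symbol per experiment and bars for the mean ± SD (n = 3). Herpud1, Hspa5 and Syvn1 are high in LPS and lower in LPS + torin1, Dnajb9 is high in both LPS groups, Atf6 steps down with each agent, Eif2ak3 is low in LPS alone, Edem2 in total mRNA is highest with torin1, and Sdf2l1 is lowest with torin1.

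In heavy polysome mRNA, 23 of the 39 genes were lower in LPS + torin1 than in LPS and 2 were higher, where 38.4% of all genes were called, 18.2% lower and 20.3% higher. Under library totals 21 were lower and 2 higher, beside 14.5% and 23.7% of all genes. The count of 25 called genes fell to 11 without experiment 1 and to 11 without experiment 3. Herpud1 fell to 173, 138 and 135.9 normalized CPM (-1.35 ± 0.30, adjusted p = 0.0163 by edgeR) and Hspa5 to 1103, 830 and 1063 (-0.95 ± 0.21, adjusted p = 0.0149 by edgeR). Ssr2 fell from 1023, 912 and 919 to 527, 482 and 532 (-0.87 ± 0.13, adjusted p = 0.00301 by edgeR). All 3 genes had torin1 libraries below every LPS library. Eif2ak3 rose to 34.1, 31.7 and 37.0 normalized CPM (0.44 ± 0.14) and Ern1 to 44.7, 43.2 and 59.1 (0.35 ± 0.17, adjusted p = 0.199 by edgeR). Of the 31 genes called lower in total mRNA, 22 were also called lower in polysomes and none was called higher. Dnajb9 stayed at its LPS level, with 34.8, 24.6 and 29.7 normalized CPM (0.07 ± 0.25). Canx, at 1345, 810 and 1365 normalized CPM, and Hsp90b1, at 1017, 653 and 1340, were spread too widely for a call, at -0.03 ± 0.20 and -0.22 ± 0.25.

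LPS + torin1 against control asks how far these mRNAs were from the resting level when both agents were present. In total mRNA 9 of the 39 genes were higher and 7 lower, where 66.7% of all genes were called, 33.1% higher and 33.6% lower, and the median of the 39 was -0.02. With the replicate block 10 were higher and 11 lower, since Pdia3, Sel1l, Edem1 and Spcs2 were then called lower and Derl2 higher, beside 36.6% and 36.9% of all genes. Under library totals 4 were higher and 28 lower, beside 19.7% and 55.0% of all genes. Of the 28 genes that rose with LPS and fell with torin1, 6 were still above control, 4 were below it and 18 were not called. The same split over all genes is not given here. Those above included Herpud1 at 1.01 ± 0.22 (adjusted p = 0.00301 by edgeR) and Syvn1 at 0.86 ± 0.16 (adjusted p = 0.00148 by edgeR). Hspa5 was close to control at 0.26 ± 0.17 (adjusted p = 0.237 by edgeR), a call lost without experiment 2 or without experiment 3, and at -0.04 under library totals. Dnajb9 was 3.10-fold above control, at 1.63 ± 0.29 (adjusted p = 0.00113 by edgeR), and Edem2 and Ern1 were above it by 0.54 and 0.43. Those below control were led by Atf6 at -1.27 ± 0.13 (adjusted p = 3.22e-05 by edgeR), or 0.415 of its control level, with all 3 libraries between 161 and 166 normalized CPM against 379 to 408. Sdf2l1 was at -0.78, the ERdj3 gene Dnajb11 at -0.39, Dnajc3 at -0.50, Ssr1 at -0.39, Hyou1 at -0.23 and Ssr2 at -0.18. These 7 were also below 0 under library totals.

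In heavy polysomes the same comparison gave 9 higher and 7 lower genes, where 58.2% of all genes were called, 28.5% higher and 29.7% lower. Under library totals 3 were higher and 17 lower, beside 17.9% and 48.3% of all genes. Without experiment 1 the count of 16 fell to 6, and without experiment 3 it also fell to 6. Dnajb9 was at 1.96 ± 0.26 and Herpud1 at 0.90 ± 0.30, and Atf6 was at -1.05 ± 0.17 and Sdf2l1 at -0.96 ± 0.20. The Sdf2l1 libraries were at 74.8, 96.4 and 79.9 normalized CPM in LPS + torin1 and at 192, 134 and 170 in control, with no overlap. Canx was called higher here, at 0.40 ± 0.20, with 878, 847 and 971 normalized CPM in control against 1345, 810 and 1365, so the torin1 library of experiment 2 lay below all control libraries.

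Members with an ERSE or ERSE-II are set beside the rest as a description, without a test. In total mRNA all 10 were higher with LPS (median 0.55, from 0.23 to 2.30) and all 10 were lower with torin1 (median -0.65, from -1.29 to -0.26). Of all genes, 32.2% were higher with LPS and 26.4% lower with torin1. Of the 23 windowed members with neither, 15 were higher and 2 lower with LPS (median 0.30), and 15 were lower and 3 higher with torin1 (median -0.35). The 23 include the sensor genes Ern1 and Eif2ak3 and the EDEM genes, so element and role are not separated by this split. In heavy polysomes 9 of the 10 were higher with LPS and 8 of the 10 lower with torin1, beside 26.4% and 18.2% of all genes. Dnajb9, the gene with the second largest rise, had neither element in its window. That window held 2 matches to the ACGTG core, counted over both strands, a core found in 29.9% of the windowed genes of the table.

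Translation efficiency is the change in polysome mRNA beyond the change in total mRNA, tested as an interaction in edgeR over the 18 libraries with FDR 0.25 and a fold of at least 1.2. None of the 39 genes passed in LPS against control, in LPS + torin1 against LPS or in LPS + torin1 against control, and 0 of them had an unadjusted p under 0.05 in any of these comparisons. The percent of all genes called was 0 in each as well. In the edgeR fit 44, 110 and 145 of the 11243 genes, or 0.391%, 0.978% and 1.29%, had an unadjusted p under 0.05. So few genes of any kind reached that p that 0 of the 39 says little about the ER genes. Once lysate was added as a block term, 0, 25 and 3 genes of the table were called, with DESeq2 1, 13 and 1, and with an analysis of partial variance in limma 10, 21 and 14. Without experiment 2, 430 genes were called in LPS + torin1 against control. None of these calls was an ER gene. The changes in total and polysome mRNA lay along the line of equal change, and no ER gene was called in opposite directions in the 2 RNA types. Missing the threshold does not show equal efficiency, and the 95% intervals say how large a difference remains possible. These intervals, and the unadjusted p above, come from the fit without the lysate block. It leaves out that the total and polysome libraries of a lysate are paired. With the lysate block, 164, 303 and 820 of the 11243 genes had an unadjusted p under 0.05 in edgeR. Intervals with that block are not given here and may differ in width. For Herpud1 the difference with LPS was -0.05 with an interval from -0.89 to 0.79, for Hspa5 -0.16 from -0.75 to 0.42, and for Dnajb9 -0.03 from -0.90 to 0.84. The narrowest intervals among the translocation genes were those of Ssr2, at 0.07 from -0.23 to 0.38 with LPS and at -0.14 from -0.45 to 0.16 with torin1.

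The smallest unadjusted p for LPS belonged to Ssr4, Spcs1 and Spcs3, small components of the TRAP and signal peptidase complexes, with differences of 0.16, 0.19 and 0.17 and p of 0.314, 0.325 and 0.451 in the edgeR fit. For torin1 it belonged to Ssr4, Atf6 and Ssr2, at -0.26, 0.21 and -0.14. Ssr4 was at 163, 136.01 and 145 normalized CPM in LPS total mRNA and 109, 110.9 and 115 with torin1, and at 299, 234 and 263 in LPS polysomes and 182, 156 and 164 with torin1. It fell in both RNA types, and the efficiency interval ran from -0.59 to 0.07. For LPS + torin1 against control, the genes with the smallest p were Canx, Spcs1 and Spcs2, at 0.34, 0.27 and 0.26, with an adjusted p of 0.998 for each in edgeR.

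**Figure D3:**
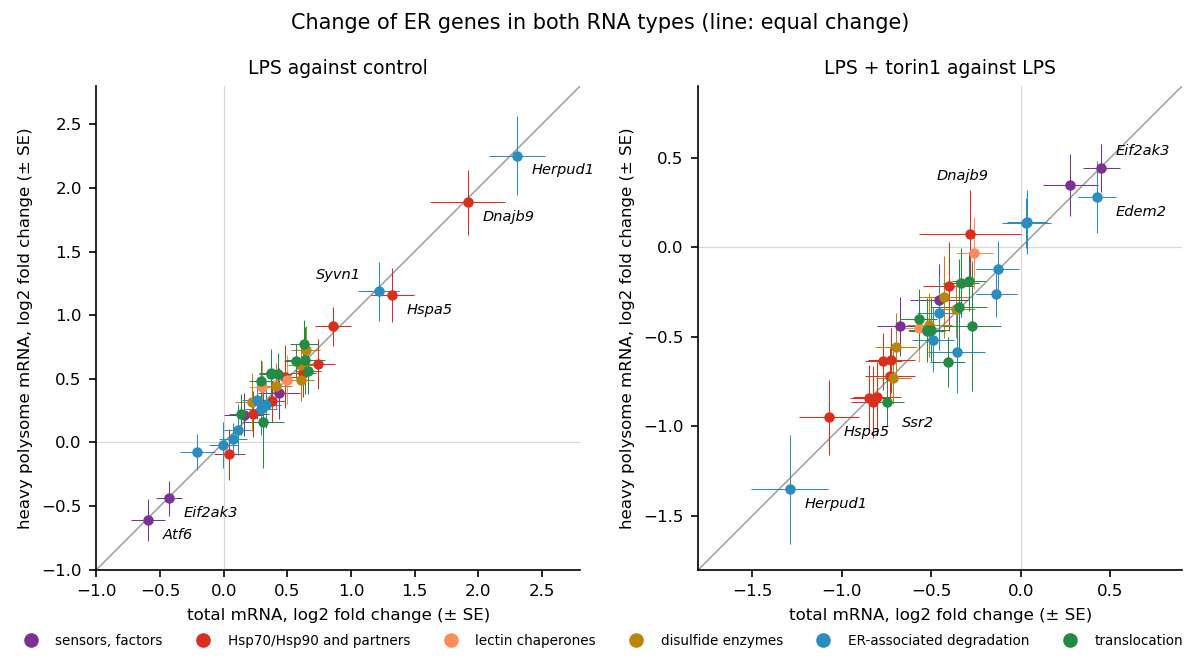
Log2 fold change in heavy polysome mRNA (vertical axes, ± SE) against that in total mRNA (horizontal axes, ± SE) of the 39 ER genes (n = 3 per group), for LPS against control and LPS + torin1 against LPS, with a line of equal change. The points follow the line from Atf6 to Herpud1 with LPS and from Herpud1 to Eif2ak3 with torin1.

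**Figure D4:**
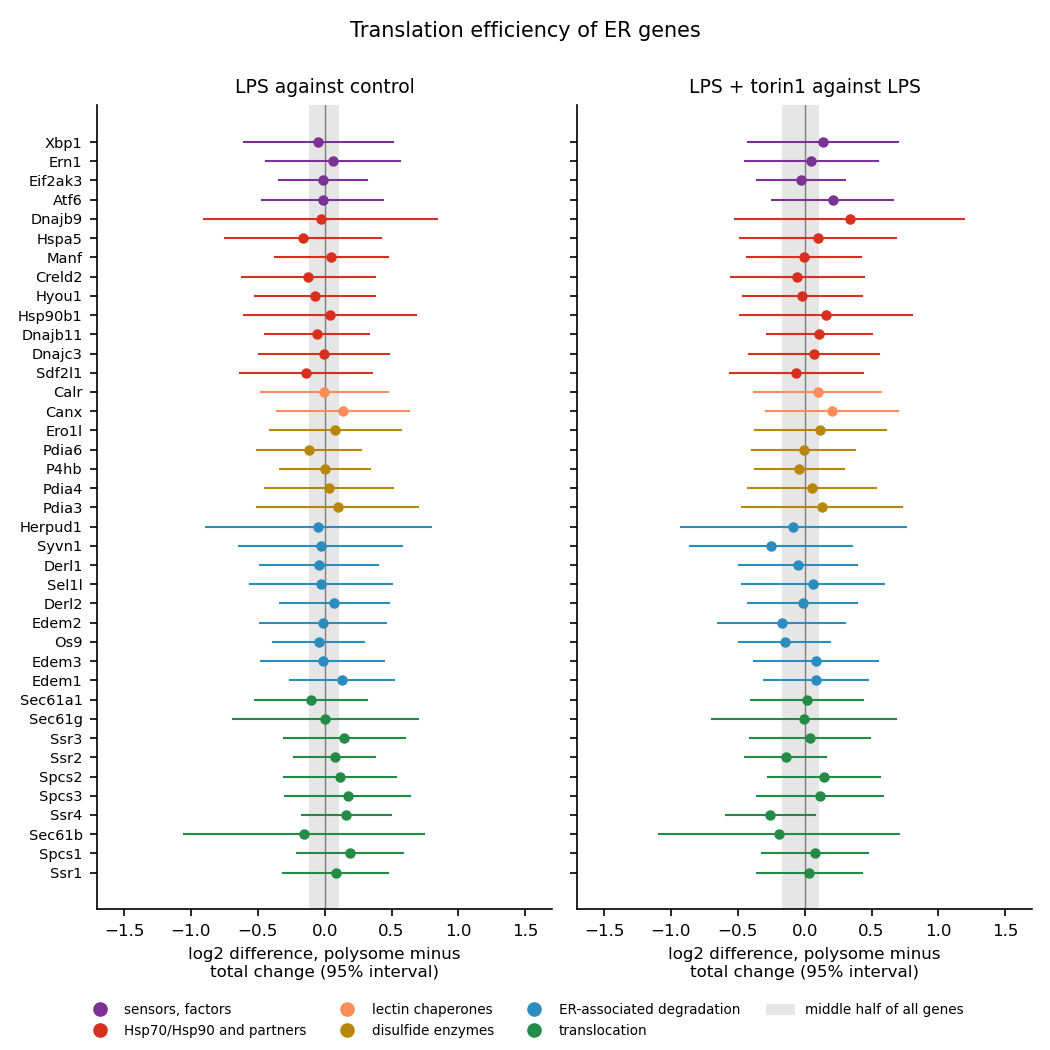
Translation efficiency difference on the log2 scale with its 95% interval (horizontal axes) for each of the 39 ER genes (vertical axis), in LPS against control and LPS + torin1 against LPS, with the range between the quartiles of all genes in grey. Every interval, from the fit without the lysate block, contains 0, and the widest intervals belong to Dnajb9, Herpud1 and Sec61b.

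How the ER mRNAs sat in polysomes at rest was read from control cells, polysome against total mRNA, relative to the average gene. Of the 39 genes, 13 were over-represented in heavy polysomes and 15 were under-represented, where 69.6% of all genes were called, 36.3% and 33.2% in the respective directions. With the lysate as a replicate block, Hyou1 and Edem1 were added to the first group and Sel1l to the second. Sdf2l1 stood highest, at 78.3, 65.3 and 66.8 normalized CPM in total mRNA and 192, 134 and 170 in polysomes, a log2 ratio of 1.24 ± 0.17 (adjusted p = 8.48e-05 by edgeR). Edem2 was at 0.98 ± 0.16, with 46.5, 48.4 and 44.7 normalized CPM in total mRNA and 94.5, 91.3 and 88.7 in polysomes. The small translocation genes Ssr2, Spcs1, Sec61g, Sec61b and Ssr4 were at 0.95, 0.95, 0.84, 0.81 and 0.68. The lowest ratios were those of Calr at -0.69 ± 0.16, Hsp90b1 at -0.64 ± 0.22, Dnajb9 at -0.61 ± 0.29, Canx at -0.54 ± 0.17, Dnajc3 at -0.53, Atf6 at -0.53 and Hspa5 at -0.45 ± 0.20. Within the TRAP complex Ssr2 and Ssr4 were over-represented while Ssr1, at -0.43 ± 0.13, and Ssr3, at -0.27 ± 0.15, were under-represented.

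The ratio went with mRNA length, the length of 1 principal transcript per gene in GENCODE M21. Over the 39 genes Spearman's rho was -0.53 (Pearson's r -0.63 with the log2 length), and over all 11103 genes with a length rho was -0.34. These are descriptions across genes of the same 6 libraries, and no p was computed. With coding length in place of mRNA length, rho was -0.41 over the 39 and -0.28 over all genes. A limit of 2000 bases, set after the values were seen, left 8 shorter members, all over-represented, with ratios from 0.60 to 1.24, and 31 longer ones with a median of -0.23. The share over-represented among all genes under that limit is not given here. The 8 are therefore not set against a background and do not show a trait particular to ER genes. Edem2 (2290 bases) and Syvn1 (3464 bases) were the most over-represented of the longer members, and Calr (2184 bases) was the most under-represented at a length close to that of Edem2.

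**Figure D5:**
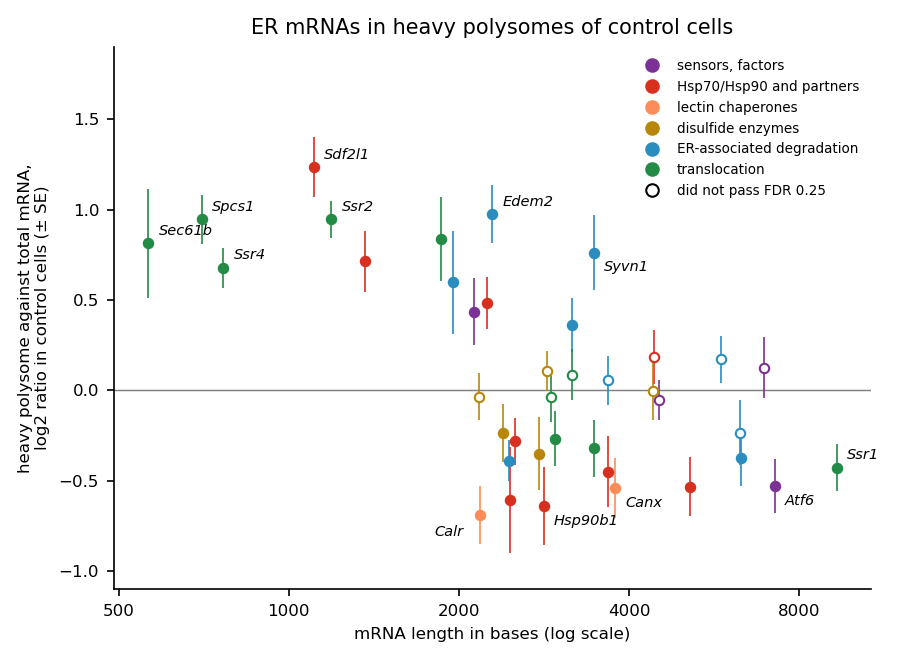
Log2 ratio of heavy polysome to total mRNA in control cells (vertical axis, ± SE, n = 3) against mRNA length in bases (horizontal axis, log scale) for the 39 ER genes, coloured by role, with open points for genes that did not pass FDR 0.25. The 8 members under 2000 bases all lie above 0, and the longer members spread from -0.69 (Calr) to 0.98 (Edem2). The share above 0 among all genes under 2000 bases is not given here.

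Levels between genes were compared as normalized CPM per kilobase of that transcript. In control total mRNA Calr was the most abundant member at 565 ± 43.6 CPM per kilobase (SD, n = 3), followed by Hsp90b1 at 457 ± 68.7, P4hb at 396 ± 11.3, Canx at 346 ± 14.5 and Hspa5 at 326 ± 56.3. Within 1 SD the ranges of Calr and Hsp90b1 meet, as do those of Hsp90b1 and P4hb and of Canx and Hspa5, while P4hb and Canx are apart. The lowest were Ern1 at 4.43 ± 0.227, Dnajb9 at 4.80 ± 1.03, Eif2ak3 at 7.98 ± 0.635 and Syvn1 at 8.07 ± 1.64, and neighbours within each pair do not differ beyond their spread. The mRNA of the third sensor, Atf6, was at 54.5 ± 2.05 CPM per kilobase. In control polysomes Ssr2 was first, at 512 ± 31.7 CPM per kilobase, and P4hb second, at 427 ± 40.9.

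Other genes of the pathway were counted from lists of names. In total mRNA, 32.2% of all genes were higher and 34.3% lower with LPS, and 27.3% higher and 26.4% lower with torin1. Under library totals these shares were 15.3% and 62.0% with LPS, and 31.9% and 20.8% with torin1. A list named for the PERK arm held ATF4, CHOP and related genes. Of these, 11 of 11 were higher with LPS in total mRNA (median 1.32, 10 under library totals). With torin1, 10 were lower and 1 higher (median -0.98). In polysomes 11 were higher with LPS and 8 lower with torin1, beside 26.4% and 18.2% of all genes. Which kinase acted on these genes was not measured or tested. In both comparisons Eif2ak3, the gene of PERK itself, changed in the direction opposite to the median of this list. Ddit4, an mTOR inhibitor induced by stress, changed by 3.52 ± 0.46 with LPS and by -4.85 ± 0.53 with torin1, and Chac1, a glutathione-degrading ATF4 target, by 3.01 ± 0.75 with LPS. Trib3, a pseudokinase induced by ATF4, was lower with torin1 by -3.81 ± 0.65, while Ppp1r15a, which encodes the phosphatase subunit GADD34, was the 1 gene higher with torin1, at 0.53 ± 0.27. Trib3 had only 12 to 47 counts per LPS + torin1 library of total mRNA. Its LPS libraries were at 17.1, 13.6 and 3.74 normalized CPM. Ddit4 was near the floor as well, with 16 to 28 counts per control library of total mRNA. It had 88 to 308 counts per LPS library and 6 to 7 per LPS + torin1 library, so the size of both its changes is uncertain. Chac1 had 22 to 155 counts per control library and 221 to 824 per LPS library of total mRNA. The median changes of this list were larger than those of the 39 in both comparisons, and that difference was not tested.

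Of 23 measured genes of targeting, translocation and glycan transfer, 19 were higher and 1 lower with LPS in total mRNA, and 19 were lower and 1 higher with torin1. Under library totals 1 was higher and 6 lower with LPS, and 13 were lower and 1 higher with torin1. Srpr and Srprb, the 2 subunits of the signal recognition particle receptor, were higher with LPS by 0.75 ± 0.10 and 0.51 ± 0.10, and Srprb was lower with torin1 by -0.69 ± 0.10. Tram2, a translocation-associated membrane protein, was the exception in both, at -0.92 ± 0.22 and 0.44 ± 0.22. Of 23 further folding enzymes, 10 were higher and 3 lower with LPS, and 15 were lower and 1 higher with torin1. Erp29, an ER protein of the disulfide isomerase family without the catalytic cysteines, fell by -0.98 ± 0.14 with LPS (adjusted p = 0.000267 by edgeR), and Fkbp11, a prolyl isomerase, fell by -0.84 ± 0.17 with torin1. For 15 measured genes of ER-associated degradation, 9 were higher with LPS, and 5 were lower and 2 higher with torin1. Vimp, which encodes the VCP-anchoring protein selenoprotein S, was at 0.81 ± 0.13 with LPS and -0.60 ± 0.13 with torin1. Under library totals 1 of the folding enzymes was higher and 13 were lower with LPS, and 8 were lower and 2 higher with torin1. For the degradation genes that scaling gave 2 higher and 7 lower with LPS, and 5 lower and 3 higher with torin1. The folding enzymes higher with LPS in the main fit were 43.5% of their list, beside 32.2% of all genes. Under library totals 56.5% of the folding enzymes and 46.7% of the degradation genes were lower with LPS, beside 62.0% of all genes.

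Among 9 further sensors and ER membrane or luminal factors, 5 were higher and 2 lower with LPS, and 2 were higher and 3 lower with torin1. The torin1 counts are 22.2% and 33.3% of the 9, beside 27.3% and 26.4% of all genes. Under library totals 3 were higher and 3 lower with LPS, and 2 were higher and 2 lower with torin1. Nucb2, which encodes a calcium-binding protein, was higher with LPS by 0.88 ± 0.12 and lower with torin1 by -0.66 ± 0.12. Wfs1, which encodes the ER membrane protein wolframin, was higher with LPS by 0.87 ± 0.24 and higher again with torin1 by 1.23 ± 0.23. Stc2, a secreted ER stress target, was lower with torin1 by -2.72 ± 0.40 (adjusted p = 0.00106 by edgeR). It was near the floor, with 43 to 80 counts per LPS library and 5 to 11 per LPS + torin1 library of total mRNA. Creb3l2, a membrane-bound transcription factor related to ATF6, was lower with LPS by -0.64 ± 0.17, and Mbtps1, the protease that makes the first cut in ATF6, was lower with LPS by -0.22 ± 0.10 and higher with torin1 by 0.44 ± 0.10.

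Some members share their position with other genes. On the opposite strand, Syvn1 overlaps Mrpl49, Derl2 overlaps Mis12, Spcs1 overlaps Glt8d1, Spcs3 overlaps Asb5, Pdia3 overlaps Catsper2, Pdia6 overlaps Atp6v1c2 and Manf overlaps Dcaf1, and Manf also overlaps Rbm15b on its own strand. Calr and Spcs2 each have 1 named pseudogene. How reads were assigned by strand is not given in the sources used here, so a part of these genes' counts may come from their neighbours.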

How the data were processed

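The authors sequenced ribosomal RNA-depleted total RNA and heavy-polysome RNA of the same RAW264.7 lysates (stranded TruSeq libraries), used Hisat2 to map reads to the GRCm38 build, and featureCounts for counts per Ensembl gene, within a nextflow RNA-seq pipeline, version 1.3. The deposited table holds these raw counts for protein-coding genes without a 0 in any library, so its lowest count is 1. It has no other columns of samples. The authors' strand setting and the versions of the mapping tools are not given in the sources used here.

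Counts were normalized by TMM and tested with edgeR 4.0.16 (quasi-likelihood, R 4.3.3), Benjamini-Hochberg adjusted over all 11243 genes and called at FDR 0.25. The 9 libraries of an RNA type shared a fit. Translation efficiency and polysome against total mRNA used a fit of 6 groups over 18 libraries. Normalized CPM is TMM-scaled over the 18 libraries. All tests were also run on simulated data. The alternatives were DESeq2 1.42.0, limma 3.58.1 (partial variance), a replicate block, library totals, a mean count of at least 100 (9722 genes), FDR 0.05, other sets of libraries in the fit and leaving out each experiment.

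The members and lists were chosen with earlier results of these data known. Every member could be named. Library values were given for the 3 members with the largest change each way in LPS against control and LPS + torin1 against LPS, among those called and changed alike in all experiments, for a set of known anchors, for the 3 with the smallest p for translation efficiency, for members that 1 library decides, and for the members singled out in polysome against total mRNA, which were chosen after their values were seen. The other lists give the 2 most extreme called genes each way at most. Symbols were those of the table, and transcript lengths and positions came from GENCODE M21.

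The replicate numbers mark 3 experiments. Deviations from the group means correlated in all 9 same-numbered pairs of total libraries (0.15 to 0.42) and in all 9 pairs of total and polysome libraries of a lysate (0.39 to 0.65), and in 5 of 9 pairs of polysome libraries at over 0.1 (-0.09 to 0.74). The numbers were therefore taken to pair the total libraries and the lysates. Polysome libraries of the same number had a mean correlation of 0.29, beside -0.14 for different numbers, so they share the experiment less evenly. The main fits used no block for any of these pairings. No replicate libraries were alike within sampling noise. Intervals cover the spread between libraries.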

Additional observations from a re-analysis of the deposited data

How the results depend on the processing

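The counts of ER genes called in total mRNA in either direction were 33 for LPS against control and 34 for LPS + torin1 against LPS. They stayed within 1.5 times of these values under every alternative tried, but the directions did not. Under library totals LPS against control had 22 called, 14 higher and 8 lower, in place of 30 higher and 3 lower. Of the 33 and 34 genes, 27 and 28 kept the call under all alternatives other than library totals and FDR 0.05. For polysome mRNA the numbers that kept it were 17 of 28 and 10 of 25. Under library totals without TMM the count in LPS against control was 15 for polysome mRNA (main 28), and in LPS + torin1 against control 32 for total mRNA (main 16). At FDR 0.05 the counts were 18 for polysome mRNA in LPS against control, 11 in LPS + torin1 against LPS (main 25), 10 for total and 5 for polysome mRNA in LPS + torin1 against control (main 16 each), and 17 for polysome against total mRNA in control cells (main 28). Leaving out 1 experiment gave 29 to 32 in total and 18 to 29 in polysome mRNA for LPS against control, 29 to 32 and 11 to 27 for LPS + torin1 against LPS, 12 to 13 and 6 to 23 for LPS + torin1 against control, and 22 to 31 for polysome against total mRNA. Translation efficiency calls among the 39 were 0 under all alternatives.

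Directions reversed under library totals in LPS against control in total mRNA for Canx (-0.068), Derl2 (-0.11), Sel1l (-0.079), Spcs1 (-0.071), Dnajc3 (-0.14), Derl1 (-0.037), Pdia3 (-0.14) and Sec61b (-0.061), in polysome mRNA for Derl2 (-0.021), Derl1 (-0.060) and Dnajb11 (-0.029), and in LPS + torin1 against control in total mRNA for Sec61g (-0.0074), Pdia6 (-0.053), Hspa5 (-0.044) and Sec61a1 (-0.14). This scaling lacks the centring on the average gene. Sec61b in LPS against control ranged from -0.013 without experiment 2 to 0.47 without experiment 1 in total mRNA, from fewer samples.

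With the replicate block, 31 genes were higher and 2 lower in polysome mRNA for LPS against control, and 28 lower and 3 higher for LPS + torin1 against LPS. The block lost no call there. In total mRNA it gave 34 and 35 called genes, and it lost no call of an ER gene in any comparison.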

Other observations

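Outside the 39 genes, 6 genes of the table with a promoter window held an ERSE and 6 held an ERSE-II, and they did not move as a group. Of those with an ERSE, Alg12, a mannosyltransferase that builds the N-glycan precursor, was higher with LPS in total mRNA by 0.46 ± 0.10 (adjusted p = 0.00343 by edgeR) and lower with torin1 by -0.22 ± 0.10 (adjusted p = 0.122). Adcy3, an adenylyl cyclase, and Acacb, an acetyl-CoA carboxylase, were lower with LPS by -1.27 ± 0.41 and -0.96 ± 0.56. Ero1lb, the paralogue of Ero1l, was at -0.02 ± 0.09, Hnrnpa3 at 0.00 ± 0.14 and Pan2 at 0.07 ± 0.09. Of those with an ERSE-II, Nucb1, Rbm39 and Lrif1 were called higher with LPS, by 0.52, 0.43 and 0.32, Lgalsl was called lower, by -0.74, and Krtcap2 and Rcl1 were not called, at 0.17 and -0.11. Krtcap2, a subunit of the oligosaccharyltransferase, was lower with torin1 by -0.64 ± 0.17, while Lrif1 and Lgalsl were called higher with torin1, by 0.51 ± 0.19 (adjusted p = 0.0646 by edgeR) and 0.25 ± 0.15 (adjusted p = 0.247 by edgeR). These values are descriptions, and no test compared the genes with and without an element.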
